A study of Caenorhabditis elegans with 6 samples.

Results

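The genes described here are 42 Caenorhabditis elegans genes listed for roles in oocytes and in the germline, mostly as regulators of maternal mRNA. They were taken as rows with exactly these names from tables of small RNA reads per annotated feature. All 42 names were present among the 46761 features of each table. Small RNAs over a gene are not its mRNA, so every value below is an amount of small RNA that matched the gene and none is a level of expression.

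The libraries came from whole gravid adults of strain BCN1050, a single transgenic line in the N2 background. It is an unc-119(ed3) mutant with the insertion crgIs1002, which carries a daf-21 promoter driving mCherry with an unc-54 3′ UTR and a functional copy of unc-119. All 6 libraries share this genotype. The grandparents (P0) had lived at 25 °C for High and at 16 °C for Low. In both cases L4 larvae were transferred to 20 °C at 12 per plate, and their F1 was bleached 4.5 days later. The F2 was raised at 20 °C for 72 hours at 1000 worms per plate and then extracted, so no sequenced worm had itself been at 25 °C or 16 °C. Each condition has 3 libraries, which the submitters call biological replicates, and each library pooled many worms.

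Translation of maternal mRNA is held back, released and localized in the C. elegans germline by RNA-binding proteins, because oocytes and early embryos make little new RNA. Genes active in the germline are also templates for 22G RNAs, secondary small RNAs that RNA-dependent RNA polymerases copy from the transcript itself. Many 22G RNAs over expressed germline genes are known to be bound by the Argonaute CSR-1, whereas other 22G RNAs are bound by silencing Argonautes of the WAGO group. 26G RNAs are primary small RNAs of sperm, oocytes and embryos, and 21U RNAs are the piRNAs of the worm. The tables do not say which Argonaute bound a read. In whole worms, fewer germ cells and less small RNA per germ cell cannot be told apart.

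A library held 1380170 to 2685999 reads of the 22G class, 18704 to 37706 of the 26G class and 37630 to 59648 of the 21U class. The values used are the authors' normalized counts, which are reads divided by one size factor per library. Low replicate 1 stood apart in the smaller classes, with 57141 normalized counts in the 26G table against 17491 to 25760 in the other libraries, and 59360 in the 21U table against 41430 to 45567. In the 22G table its total, 2091575, lay within the range of the others, 2027738 to 2118218.

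22G RNAs were present over all 42 genes in every library, and their amounts were close to each other in High and Low. Of all features, 38.2% had a 22G read in any library. The genes together held 11645, 11664 and 11753 normalized counts in High and 11387, 11765 and 11838 in Low. These sums overlapped, and they were 0.550%, 0.563% and 0.573% of the 22G signal in High and 0.544%, 0.573% and 0.584% in Low. None of the 42 genes passed the test for a difference. limma-trend, a linear model on log2 of the normalized count plus 1 fitted over all 9402 features with a mean of at least 5, called 0 of the 42 at an adjusted p under 0.05, against 8.3% of all tested features. edgeR and DESeq2, run on the recovered reads, also called 0 and 0, against 8.25% and 7.48%. At an unadjusted p under 0.05, limma counted 2 of the 42, against 17.6% of all tested features, and the lowest adjusted p of a member was 0.181.

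**Figure D1:**
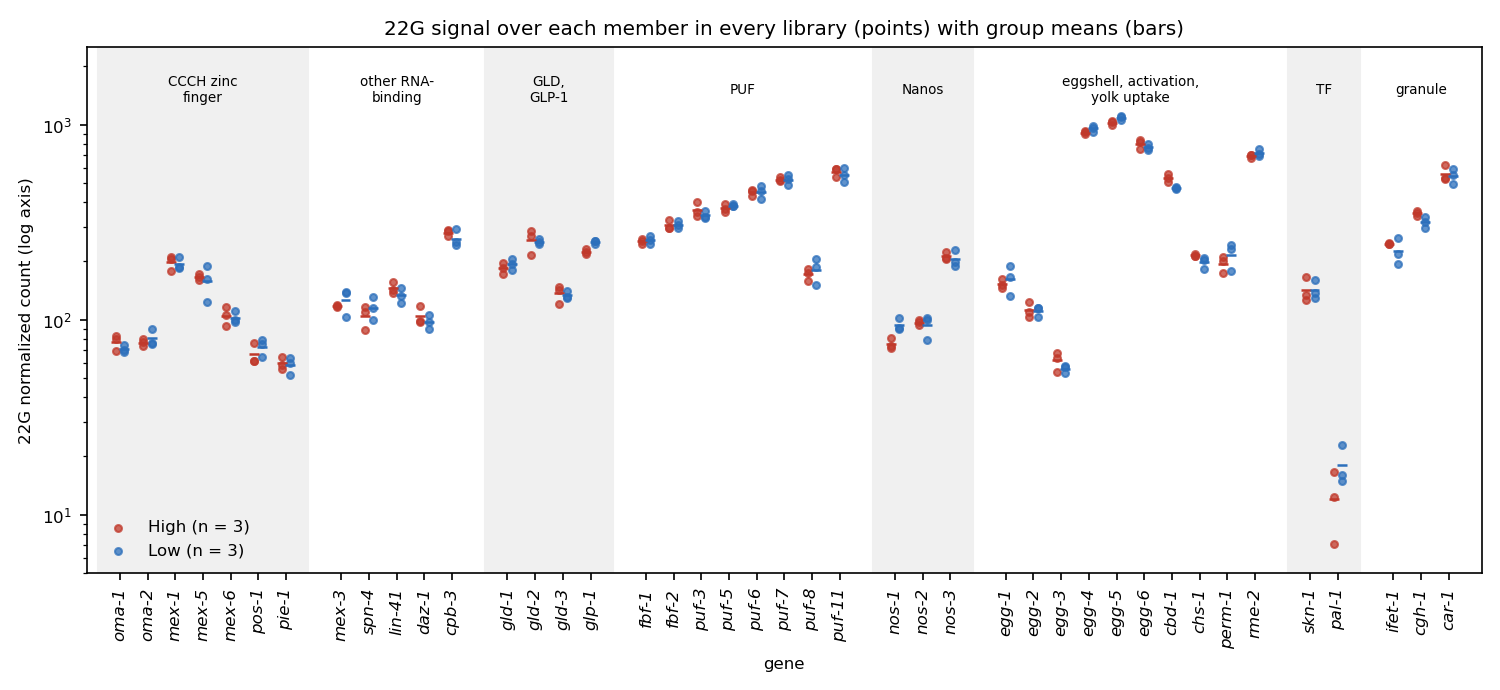
Normalized 22G count (log axis) of each of the 42 genes in the 3 High and 3 Low libraries, ordered by the role of the protein, with points for libraries and short bars for group means. The means over all libraries run from 14.9 for pal-1 to 1054 for egg-5, and the High and Low points of a gene lie close together.

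The data bound how large a difference could have been. The log2 differences, High minus Low, had a median of 0.01 over the 42 genes and a median absolute size of 0.07, where all tested features had a median absolute size of 0.17. They ranged from -0.59 for pal-1 to 0.17 for cbd-1, with 23 positive and 19 negative. For 40 of the 42 genes the 95% interval of the difference lay within 1.5-fold in either direction, which held for 47.9% of all tested features. The exceptions were nos-1 and pal-1, and only the interval of pal-1 reached beyond 2-fold. Intervals of this width depend on the number of reads behind a gene. They also depend on limma-trend, which draws the variance of each gene toward that of features at similar levels. Apart from pal-1, with 8 to 21 reads per library, each gene had at least 35 reads in every library, and egg-5 had up to 1453. The spread between replicates of one group was near the counting error of the reads, with a median ratio of the observed to the counting variance of 0.913 over the 42 genes and 1.23 over all tested features.

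**Figure D2:**
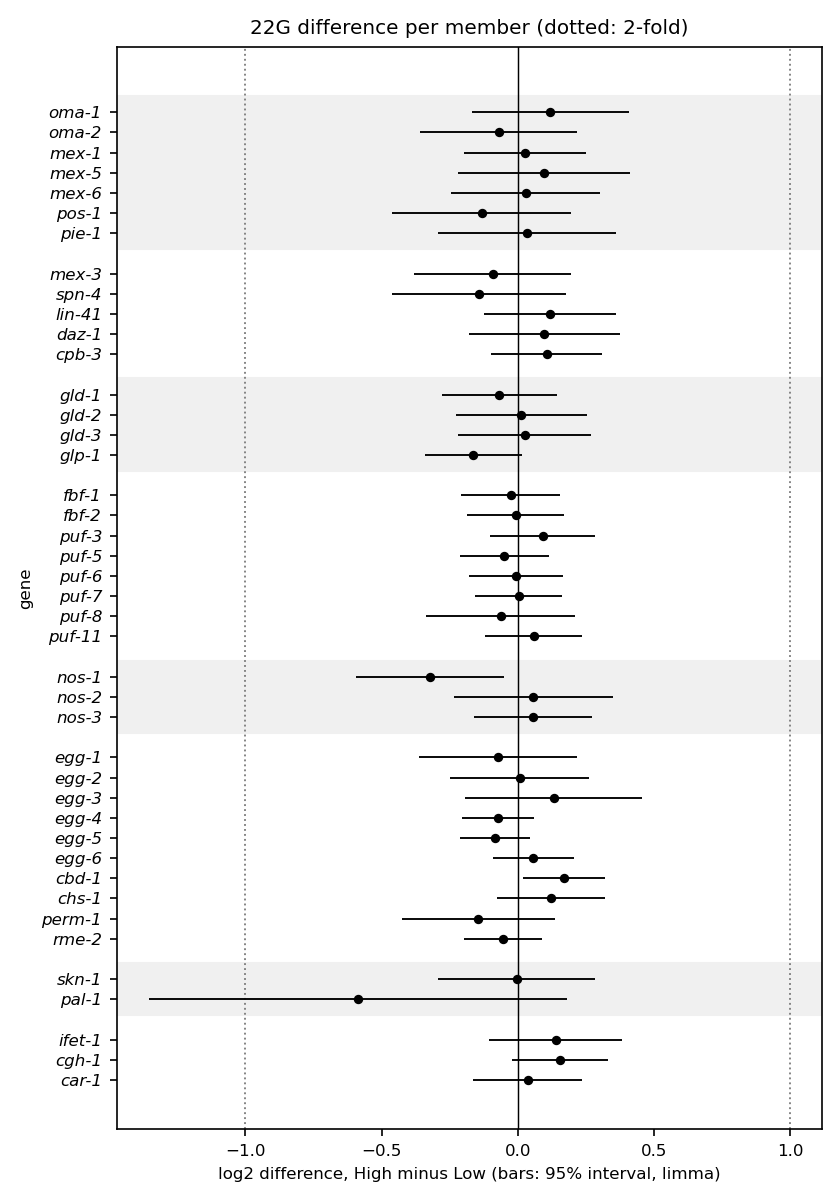
The log2 difference of 22G signal, High minus Low, for each of the 42 genes with its 95% interval from limma, with dotted lines at 2-fold. The intervals of all genes but nos-1 and cbd-1 include 0, and only that of pal-1 extends past a dotted line.

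**Figure D3:**
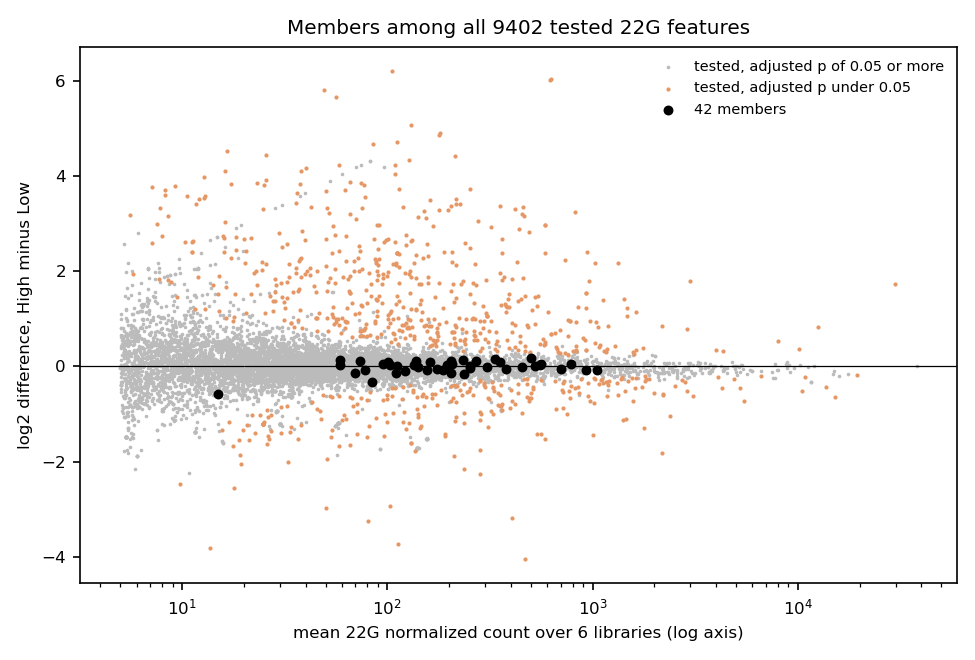
Log2 difference, High minus Low, against the mean 22G normalized count (log axis) for all 9402 tested features, with the 42 genes in black and features at an adjusted p under 0.05 in orange. The 42 genes lie in the band around 0, and none of the orange features is one of them.

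The CCCH zinc finger genes encode proteins that bind maternal mRNA in oocytes and early embryos. oma-1 and oma-2, which act redundantly in oocyte maturation, carried similar amounts of 22G RNA. oma-1 had 82.6, 69.3 and 79.4 normalized counts in High against 74.3, 68.0 and 69.9 in Low, which gave a difference of 0.12 ± 0.13 (SE) on the log2 scale. oma-2 had 79.3, 76.4 and 72.8 in High against 75.8, 74.9 and 89.96 in Low, which gave -0.07 ± 0.13. In both genes the groups overlapped. mex-5 and mex-6 set up the anterior-posterior asymmetry of the zygote. mex-5 had 159.6, 166 and 172 in High and 123, 161 and 188 in Low, so that the Low libraries spread on both sides of the High ones. mex-6 had 106, 92.4 and 115.4 in High and 97.0, 99.3 and 110.1 in Low. Their differences were 0.10 ± 0.14 and 0.03 ± 0.12.

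The other zinc finger genes act in posterior and germline blastomeres of the embryo. mex-1, needed for the correct segregation of germline factors, averaged 197 ± 17.5 in the High libraries and 193 ± 13.6 in the Low libraries (SD, n = 3 each). pos-1, which controls translation in posterior blastomeres, was at 66.4 ± 8.45 and 72.7 ± 7.62. pie-1, which keeps the germline blastomeres transcriptionally silent, was among the 3 genes with the lowest normalized counts. It had 58.4, 55.96 and 64.7 in High against 63.6, 59.6 and 51.9 in Low, so the groups overlapped. Summed over the 7 zinc finger genes, the signal was 746 ± 46.0 in High and 734 ± 36.7 in Low.

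A further group of RNA-binding proteins works beside the zinc finger proteins. mex-3, a KH-domain repressor of pal-1 translation, was at 117 ± 1.32 in High and 126 ± 20.1 in Low. spn-4, an RRM protein of the early embryo, was at 104.4 ± 14.6 and 115.2 ± 16.0. lin-41, a TRIM-NHL protein that prevents premature maturation of oocytes, was at 144 ± 9.88 and 133 ± 11.9. These differences were no larger than the spread between the libraries. daz-1, a DAZ-family protein needed for female meiosis, was at 105 ± 11.5 and 97.5 ± 7.74. cpb-3, a CPEB-family protein, was at 279.6 ± 10.0 and 260.3 ± 26.3. The 5 log2 differences lay between -0.14 and 0.12.

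The choice between mitosis and meiosis in the germline rests on the Notch receptor GLP-1 and on the GLD proteins. glp-1 was lower in each High library than in each Low library, with 224, 229 and 218 against 244, 254 and 253 normalized counts. The difference of -0.16 ± 0.08 on the log2 scale did not pass (limma adjusted p = 0.338). Groups that did not overlap were found in 6 of the 42 genes and in 22.7% of all tested features. gld-1, a STAR-family translational repressor, averaged 183 ± 11.4 in High against 192 ± 12.5 in Low. gld-2, a cytoplasmic poly(A) polymerase, was at 255 ± 36.2 and 251 ± 7.69, and its partner gld-3, a Bicaudal-C homologue, at 136 ± 13.6 and 134 ± 6.202.

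PUF proteins bind 3′ untranslated regions of mRNAs and mostly repress them. Their 8 genes held 3013 ± 57.8 normalized counts together in High and 2997 ± 111 in Low, and their log2 differences lay between -0.06 and 0.09. fbf-1 and fbf-2 maintain germline stem cells. fbf-1 had 252, 244 and 259 in High and 269.8, 243 and 257 in Low. fbf-2 had 295, 297 and 325 in High and 321, 305 and 295 in Low. The groups of both genes overlapped, and fbf-2 was above fbf-1 in every library. puf-8, which also acts in the mitotic region, was at 171 ± 12.6 and 179.7 ± 27.4.

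The other PUF genes act during oogenesis, and per kilobase of transcript they carried more 22G signal than fbf-1, fbf-2 or puf-8. puf-3 had 338, 403 and 356 normalized counts in High and 335, 331 and 362 in Low. puf-11 had 591, 591 and 538 in High and 506, 551 and 597 in Low. Both genes overlapped between the groups. puf-6 had 464, 456 and 432 in High and 417, 484 and 458 in Low. puf-7 had 519.7, 537 and 511 in High and 488, 554 and 524 in Low, and Low replicate 1 was the lowest library for both. puf-5 was at 372 ± 19.7 and 384 ± 5.47. puf-6, puf-7 and the related puf-10 had identical values in the 26G table, so reads may be shared between them. How reads with several matches were treated is not stated.

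Of the 3 Nanos genes, which act with PUF proteins and in primordial germ cells, nos-1 had the smallest p of all 42 genes. It had 71.6, 80.8 and 72.8 normalized counts in High against 90.9, 102 and 89.96 in Low, without overlap between the groups. The log2 difference was -0.32 ± 0.12, with a 95% interval from -0.60 to -0.05, and limma gave an adjusted p of 0.181. nos-2 had 96.6 ± 3.11 in High and 93.3 ± 13.001 in Low, and nos-3 had 212 ± 10.4 and 204 ± 20.2. Their differences of 0.06 ± 0.13 and 0.06 ± 0.10 were smaller than their SE, so no direction is read from them. Without Low replicate 3 that of nos-2 was -0.06.

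Among the eggshell, egg activation and yolk uptake genes were those with the most 22G signal, egg-4 and egg-5. With egg-3 they encode inactive relatives of tyrosine phosphatases that hold the kinase MBK-2 at the oocyte cortex until egg activation. egg-5 had 994, 1031 and 1044 in High and 1050.2, 1110.0 and 1093 in Low. egg-4 had 891, 913 and 925 in High and 919.9, 965 and 983 in Low. The High libraries of egg-5 lay below all Low ones, and those of egg-4 overlapped them, with differences of -0.08 ± 0.06 (limma adjusted p = 0.556) and -0.07 ± 0.06 (0.644). egg-3 stood at the other end, with 53.9, 67.5 and 63.8 in High and 53.04, 58.1 and 57.2 in Low. egg-6, a leucine-rich repeat protein known from epithelia, had 746, 814 and 834 in High and 744, 794 and 761 in Low. It was kept in this group as listed, although that description does not place it in the egg, and it counts in the values of the group.

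egg-1 and egg-2 encode LDL-receptor-like proteins of the oocyte surface that are needed for fertilization. egg-1 had 145, 161 and 149.8 in High and 165, 131 and 187 in Low. egg-2 had 123, 109 and 103 in High and 115.2, 114.6 and 103.7 in Low. Neither separated the groups. rme-2, the yolk receptor of the oocyte, averaged 689 ± 15.7 in High against 715 ± 31.9 in Low.

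The eggshell layers are built from chitin-binding proteins, chitin and a permeability barrier. cbd-1, a chitin-binding eggshell protein, had 556, 532 and 511 in High and 474, 466 and 478 in Low. The High libraries were all higher, by 0.17 ± 0.07 on the log2 scale, with a 95% interval from 0.02 to 0.32 and a limma adjusted p of 0.199. chs-1, the chitin synthase of the eggshell, had 212, 217 and 213 in High and 203, 206 and 181 in Low. Its groups did not overlap either, with a difference of 0.12 ± 0.09 (0.578). perm-1, needed for the permeability barrier, was at 194 ± 18.7 and 216 ± 33.6.

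skn-1 and pal-1 encode transcription factors whose mRNAs are maternal and are controlled by the proteins above. skn-1 averaged 141.6 ± 20.9 in High against 141.6 ± 15.6 in Low. pal-1, a Caudal-type homeobox gene, had the least 22G signal of the 42 genes. It had 16.5, 7.11 and 12.3 normalized counts in High against 22.7, 16.0 and 14.8 in Low, so the groups overlapped. The log2 difference was -0.59 ± 0.35, with an interval from -1.36 to 0.18, so that neither no change nor a 2-fold lower value in High lay outside it at this depth.

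ifet-1, cgh-1 and car-1 encode proteins of the granules in which maternal mRNA is stored and repressed. cgh-1, a DDX6-family helicase, had 360.0, 340.2 and 354 in High and 318, 294 and 336 in Low. The High libraries were all higher, by 0.15 ± 0.08, and the difference did not pass (limma adjusted p = 0.371). car-1, an Sm-like protein that binds CGH-1, was at 561 ± 53.3 and 547 ± 46.4. ifet-1, the eIF4E-transporter homologue, was at 245 ± 1.95 and 224 ± 34.9. Over all 42 genes, the 6 with separated groups were thus split, with cbd-1, chs-1 and cgh-1 higher in High and glp-1, nos-1 and egg-5 lower. The background was 12.8% of tested features higher and 9.97% lower.

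Levels were compared between genes per kilobase of the longest annotated transcript. The 42 genes had a median of 79.1 normalized counts per kilobase, at a median percentile of 72.0 among the 7870 tested protein-coding features, whose median was 41.9. Of the 42, 37 lay above that median. The highest per kilobase were egg-5 at 446 ± 17.8 (SD over 6 libraries), egg-4 at 395 ± 14.6 and car-1 at 389 ± 31.9, the last 2 closer to each other than their spread. puf-11 followed at 325 ± 21.2 and puf-7 at 283 ± 12.2, each apart from its neighbours by more than the SD. The lowest were pal-1 at 10.3 ± 3.55, lin-41 at 28.9 ± 2.42 and egg-3 at 32.8 ± 3.16. The range from pal-1 to egg-5 was 43.4-fold, and from lin-41 to egg-5 15.4-fold. The ends of this order depend on the length used. Per kilobase of coding sequence car-1 came first at 541, above egg-5 at 466 and egg-4 at 412, and egg-3 at 35.3 lay below lin-41 at 40.3. By role, the median per kilobase of transcript was 193 for the PUF genes, 147 for the repression granule genes and 119 for the eggshell, activation and yolk uptake genes. It was 69.2 for the Nanos genes, 59.8 for the other RNA-binding proteins, 54.5 for the zinc finger genes and 54.5 for the GLD genes with glp-1. The 2 transcription factor genes were unlike, with pal-1 at 10.3 and skn-1 at 54.5, so their median of 32.4 describes neither.

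**Figure D4:**
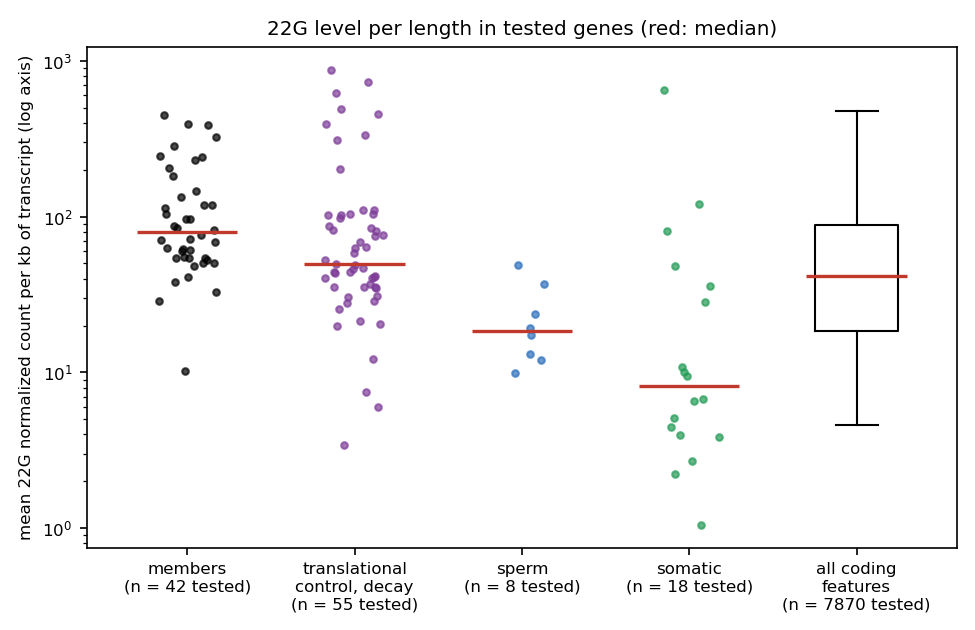
Mean 22G normalized count per kilobase of transcript (log axis) for tested genes of 4 lists and for all tested protein-coding features (box from the 25th to the 75th percentile, whiskers from the 5th to the 95th), with medians in red. The 42 genes have a median of 79.1, the translational control and mRNA decay genes 49.9, the sperm genes 18.3 and the somatic genes 8.13.

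Sperm genes and genes of somatic tissues gave a scale for these levels. All 42 genes reached the minimum of 5 normalized counts, whereas 8 of 57 sperm genes and 18 of 42 somatic genes did. In the sperm list msp-10, msp-56 and msp-76 had the same values in Low, 1.52, 3.82 and 3.18, though not in High. Reads may thus be shared between msp genes, and how reads with several matches were treated is not stated. The part of this in their low counts was not tested. Among tested genes, the median per kilobase was 18.3 for the sperm genes and 8.13 for the somatic genes. Of the msp genes only msp-77 was tested, so the 18.3 describes mostly spe genes. That these act only in sperm was not tested. Over all 57 sperm genes, tested or not, the median was 1.00 normalized counts, and over all 42 somatic genes 2.09. The difference of these lists from the 42 genes was not tested. Of the sperm genes 0 were called by limma, and edgeR and DESeq2 also called 0 and 0, with 0 at an unadjusted p under 0.05, where the shares of all tested features were 8.3% adjusted and 17.6% unadjusted. The sperm list summed to 493 to 512 normalized counts in High and 386 to 490 in Low. These sums were apart only between 490.0 and 493.5, and their difference was not tested. Of the 8 tested sperm genes 0 had separated groups, against 22.7% of all tested features. The msp genes msp-10, msp-19, msp-51, msp-53, msp-76, msp-78 and msp-79, all below the minimum, were higher in each High library. No msp gene was lower in each, and the share for all features below the minimum was not computed. spe-41 and spe-39 had the most signal, at 98.6 and 91.6 over all libraries. Of the 18 tested somatic genes 2 were higher in High and 0 lower, against 5.64% and 2.66% of all tested features. These were the myosin gene unc-54 (4486 ± 182 against 3522 ± 128, adjusted p = 0.00139, or 0.119 in limma without trend) and the neuropeptide-processing gene egl-21 (375 ± 14.0 against 35.6 ± 5.10, adjusted p = 3.71e-08). The transgene carries an unc-54 3′ UTR, so reads from it may have been counted for unc-54. The somatic list summed to 5112 to 5523 normalized counts in High and 3881 to 4092 in Low, while the sums over the 42 germline genes overlapped, as given above. Without unc-54 and egl-21, a pair left out after their values were seen, the other 40 somatic genes summed to 415 to 483 in High and 447 to 476 in Low, which overlapped. The median log2 difference of the tested somatic genes was -0.03, with 8 positive and 10 negative. Groups were separated in 8 of these 18 genes, 4 higher in High and 4 lower, against 22.7% of all tested features. That difference in shares was not tested. The part of signal from somatic tissue in the germline values was not tested either.

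A list of other genes drawn up for translational control and mRNA decay gave a single call. It was drawn broadly and also holds cell cycle genes such as cdk-1 and cks-1. Of its 63 genes in the tables, none of them a member, 57 were tested. By limma 0 were higher and 1 lower, against 5.64% and 2.66% of all tested features. The gene that fell was puf-9, a PUF gene also active in somatic tissue, with 116, 120 and 126 normalized counts in High and 180.3, 196 and 187 in Low. Its log2 difference was -0.64 ± 0.10 (limma adjusted p = 0.00106). The most abundant were puf-4, at 1871 ± 12.8 and 1791 ± 318, and pab-2, a poly(A)-binding protein gene, at 1155 ± 26.6 and 1308 ± 59.3. Neither passed the threshold, though pab-2 was lower in each High library (limma adjusted p = 0.120). The exonuclease gene xrn-1, at 438 ± 20.9 and 363 ± 14.5, had an adjusted p of 0.0509. The list had a median log2 difference of 0.02 and a median absolute size of 0.11. Separated groups were found in 13 of the 57 genes, against 22.7% of all tested features. At an unadjusted p under 0.05, limma counted 8 of the 57, against 17.6%.

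Within pairs of related genes, the ratio of 22G signal per kilobase of transcript was steady across the 6 libraries. egg-4 was at 0.886 ± 0.0115 times egg-5 (SD over 6 libraries, range 0.870 to 0.900), puf-6 at 0.847 ± 0.0182 times puf-7 and fbf-1 at 0.842 ± 0.0304 times fbf-2. puf-3 was at 0.628 ± 0.0435 times puf-11. The pairs with fewer reads varied more. mex-5 was at 1.503 ± 0.181 times mex-6, egg-1 at 1.39 ± 0.235 times egg-2 and oma-1 at 0.816 ± 0.0960 times oma-2. In each of the 7 pairs the same gene was the higher one per kilobase of transcript in all 6 libraries. Per kilobase of coding sequence, and by normalized count, this held for 6 pairs, while oma-1 was above oma-2 in 2 of the 6 libraries. The High and Low ratios of every pair overlapped. Reads that match both genes of a pair would make their values more alike, and the sources do not say how such reads were assigned.

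**Figure D5:**
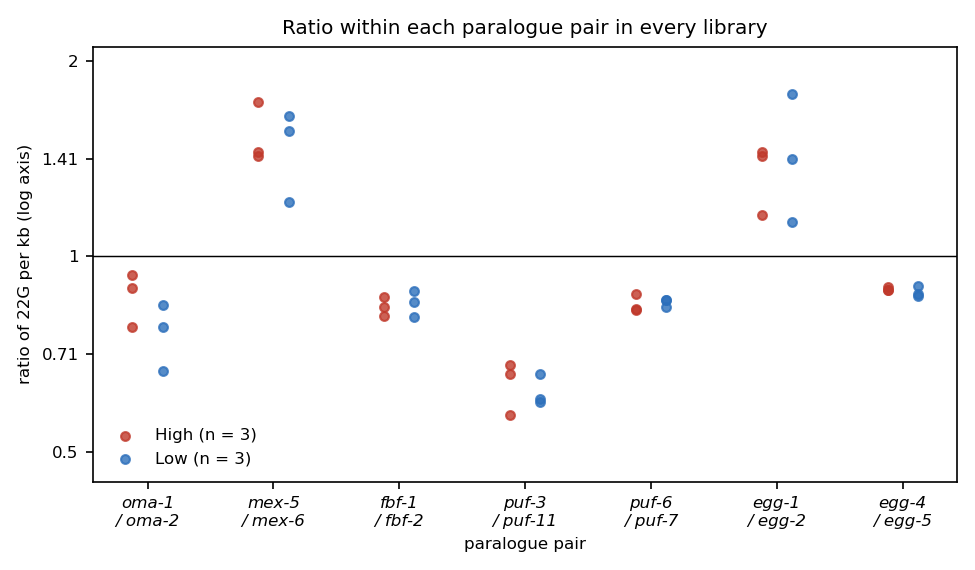
Ratio of 22G normalized counts per kilobase of transcript within 7 pairs of related genes (log axis), one point for each of the 3 High and 3 Low libraries, with a line at 1. The ratio of egg-4 to egg-5 runs from 0.870 to 0.900 and that of egg-1 to egg-2 from 1.13 to 1.78.

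The positions of the genes were not used to choose them. In the Ensembl annotation 0 of the 42 lie on the X chromosome, which holds 7.94% of the tested protein-coding features, and 14 (33.3%) lie on chromosome II, which holds 18.5%. These shares were not tested. Exons of 15 of the 42 overlap an exon of another gene, by 3 to 154 bases and mostly on the opposite strand. The share of all genes with such an overlap was not computed. The longest such overlap is that of nos-2 with the meiosis gene him-14. Because the counted strand is not stated, within such an overlap reads of the gene and of its neighbour cannot be told apart.

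The 26G and 21U tables held few reads over these genes. Of the 42 genes 28 had any 26G read, against 8.81% of all features. Together the 42 held 9 to 17 reads per library, and the highest mean was 1.03 normalized counts, so 0 reached the minimum for a test. Across the 6 libraries the 42 genes had 74 reads in the 26G table against 72170 in the 22G table, or 0.103%. For all features together the 26G reads were 1.15% of the 22G reads. The low counts allow no statement on a difference of 26G RNAs over any member.

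Of the 42 genes 40 had any 21U read, against 16.3% of all features. These reads were 402 in all or 0.557% of the 22G reads of the 42 genes, against 2.19% for all features. The definition of the 21U class is not given, so whether these reads over coding genes are piRNAs was not tested. The genes with the most were egg-4, egg-5 and puf-11, which alone reached the minimum. egg-5 had 6.61, 7.99 and 4.91 normalized counts in High and 6.06, 12.2 and 13.8 in Low, and egg-4 had 8.81, 7.99 and 4.91 in High and 6.06, 10.7 and 11.6 in Low. Both overlapped between the groups. puf-11 had 7.71, 7.99 and 5.73 in High and 3.03, 1.53 and 4.23 in Low, from 2 to 9 reads per library. Its mean was 5.04 over all libraries, 7.14 in High and 2.93 in Low, so it reached the minimum of 5 only through High. The separation and p-values of puf-11 given here are therefore no support for a difference. The High libraries of puf-11 were all higher, by 1.102 ± 0.54 on the log2 scale (limma adjusted p = 0.255), where 4.22% of the 592 tested 21U features were separated in that direction. limma called 0 of the 3 genes, against 0.169% of tested features, with 0 at an unadjusted p under 0.05 (20.9%), and edgeR called 0 (0.338%). DESeq2 gave none of the 3 an adjusted p. Over 14 alternative settings the log2 difference of puf-11 lay between 0.62 and 1.69, and its unadjusted p was under 0.05 in 7 of them. The lowest was 0.0117, in edgeR, and its adjusted p ran from 0.133 to 0.564 in the 13 that gave one. egg-5 had an unadjusted p under 0.05 in 1 of the 14, without Low replicate 1, and egg-4 in 0. Across the 42 genes, the order of 21U reads followed that of 22G reads (Spearman's rho 0.799 across genes of the same libraries, which are not independent). Low replicate 1, whose 21U total stood apart, was left out as a check. The differences were then 1.15 for puf-11, -0.60 for egg-4 and -0.92 for egg-5, at limma adjusted p of 0.209, 0.396 and 0.157.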

How the data were processed

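RNA was treated with phosphatase and polynucleotide kinase before library preparation, per the labels' protocols. Tools named in the submitters' processing notes are featureCounts 1.4.6, DESeq2 1.8.1, Bowtie 1.1.1 and cutadapt 1.7.1. Nothing used here gives the build, annotation, class definition or strand. The deposited values are a signal, namely reads scaled by one size factor for each library. Every nonzero value was a whole multiple of 1 step per library (100% within 0.01 reads), so whole reads were recovered. Features with a mean of at least 5 were tested with limma-trend (limma 3.58.1, R 4.3.3) on log2 of the normalized count plus 1, two-sided, with Benjamini-Hochberg adjustment over each table. edgeR 4.0.16 and DESeq2 1.42.0 were run on recovered reads. Fold changes are on that log2 scale and understate those of low values. Of 46761 features, 45375 (97.0%) matched Ensembl release 115, which gave lengths and chromosomes. Members and lists were chosen with earlier results of these data known. Values per library are given for genes with separated groups, the 3 highest and 3 lowest, the paralogue pairs and those tested in the 21U table. The test was checked on simulated data. Intervals come from limma-trend. They combine the spread of a gene between these samples with the spread of tested features at similar levels. Alternatives were other pseudocounts, filters, scalings, tools, thresholds and a replicate block, each library left out, and coding length for levels. Figures were drawn with Matplotlib 3.10.9.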

Additional observations from a re-analysis of the deposited data

How the results depend on the processing

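No member was called in the 22G table under any of 17 alternative settings, and the lowest adjusted p of a member in them was 0.139, for nos-1. In the 713 member values recomputed, the sign changed in 44, over 18 genes whose difference was at most 0.10 on the log2 scale. The median difference of the members lay between -0.013 and 0.034 when one library was left out. The translational control and mRNA decay list had 2 calls with a pseudocount of 5, with a minimum mean of 20 and at an adjusted p under 0.1, and 1 to 2 when one library was left out (2 without Low replicate 1), in place of 1; the added gene was xrn-1 each time, at an adjusted p of 0.0429 to 0.0509. The call of puf-9 held in all 17. The somatic list had 1 call in limma without trend, in place of 2. With coding length, the median level per kilobase of the members, taken in each library and averaged over the 6, was 108.73 in place of 81.08, as coding sequences are shorter, and car-1 then stood above egg-5. With a replicate block 0 members, 0 sperm genes, 2 somatic genes and 1 translational control gene were called, as without it. The labels state no pairing of same-numbered High and Low libraries. Their deviations from the group means had correlations of 0.034, 0.046 and 0.020. Libraries of different number had correlations from -0.082 to 0.038. Whether same-numbered libraries were handled together is not stated. In the 26G table members could be tested only without a filter (0 of 28 called), and in the 21U table none reached a minimum mean of 20 and DESeq2 gave no member an adjusted p. The median of all tested 22G features moved by less than 0.1 under the other scalings. Depth limits pal-1 and every member in the 26G and 21U tables.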
